A study of Mus musculus with 20 samples.

Results

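The genes described here encode glutathione transferases, UDP-glucuronosyltransferases and sulfotransferases of mouse liver. They were chosen by name from the table of 16115 genes, with earlier results of these data known. Every symbol of the Gsta, Gstk, Gstm, Gsto, Gstp, Gstt and Gstz families, of Ugt1a, Ugt2a, Ugt2b and Ugt3a, and of Sult1 to Sult5 was taken, whatever its values. This gave 52 genes, of which 22 were glutathione transferase genes, 16 were UDP-glucuronosyltransferase genes and 14 were sulfotransferase genes. Of the 52 genes, 47 averaged 1 CPM or more (counts relative to the scaled library size) over all libraries and 5 lay below it (Gsta5, Gsto2, Sult2a2, Sult2a5 and Ugt1a10).

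RNA was sequenced from the livers of male mice in 5 groups: untreated wild type, and Fancd2 mutants labelled d2-/- that were untreated, given metformin, given oxymetholone or given both drugs. Tissue was taken at the end of a treatment period of 18 months. The sources used here do not state doses or ages, and no wild-type mice received a drug. FANCD2 belongs to the Fanconi anaemia pathway of DNA crosslink repair. Metformin lowers blood glucose, and oxymetholone is a 17-alpha-alkylated anabolic androgen. The libraries used were 4 of wild type, 3 of untreated mutants (replicates 2, 3 and 4), 3 with metformin (1, 3 and 4), 5 with oxymetholone and 3 with both drugs, and the other 2 of 20 labelled samples were not analysed here. Replicate numbers follow the order of the sample records.

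These enzymes carry out the conjugation step of detoxification. Glutathione transferases join the tripeptide glutathione to reactive, electrophilic compounds, UDP-glucuronosyltransferases of the endoplasmic reticulum add glucuronic acid to bilirubin, steroids, bile acids and drugs, and cytosolic sulfotransferases move a sulfate group from the donor PAPS onto steroids, phenols and amines. In liver the genes are known to be induced through the receptors CAR, PXR and AHR and through the oxidative stress factor NRF2, and several have different levels in male and female mice.

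Total counts were 20.2 to 32.7 M per library. The genotype labels were not checked, since Fancd2 was not analysed here. The 12 hepatocyte markers measured summed to between 43547 and 101897 CPM in every library. Libraries of 1 group differed far beyond counting error, with a chi-square of 79.7 or more per degree of freedom between any pair. Nothing in the labels says whether each library came from its own animal, so the p-values measure only the spread between these libraries. By median correlation with the other libraries, combination replicate 3 and metformin replicate 3 stood farthest from the rest (0.916 and 0.926). Oxymetholone replicate 3 was highest for 17.2% and lowest for 15.6% of all genes, with 8.19% mitochondrial counts against 1.54 to 3.89% elsewhere. Combination replicate 3 had the highest sums of stellate cell and of macrophage markers (879 and 1320 CPM), and 46096 CPM of hepatocyte markers. The part of this in the values below was not tested. Among the 47 genes, combination replicate 3 was the lowest library for 11 (23.4%, against 16.1% of all genes), oxymetholone replicate 5 was the highest for 11 (23.4%, against 4.47%) and untreated mutant replicate 2 was the lowest for 7 (14.9%, against 3.15%). In whole liver RNA, fewer cells of a type and less RNA per cell cannot be told apart.

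The most abundant members per length of transcript in wild type were Gsta3, an alpha-class transferase (1811 ± 295 CPM per kb, SD, n = 4), Gstp1, the main pi-class transferase (1251 ± 362 CPM per kb), Gstz1, the maleylacetoacetate isomerase of tyrosine breakdown (916 ± 217 CPM per kb), Sult2a8, a hydroxysteroid and bile acid sulfotransferase (908 ± 568 CPM per kb) and Ugt2b36 (877 ± 230 CPM per kb). The intervals of mean ± SD of these 5 levels overlapped except for Gsta3, whose mean less its SD lay above the mean plus SD of Gstz1, Ugt2b36 and Sult2a8. Ugt1a9 had 52.4 ± 22.2 CPM per kb and Ugt1a1 had 4.97 ± 1.10 CPM per kb in the same libraries. All members together took a modest part of the RNA: glutathione transferases 0.343 to 1.19% of counts per library, UDP-glucuronosyltransferases 0.245 to 0.821% and sulfotransferases 0.104 to 0.503%.

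**Figure D1:**
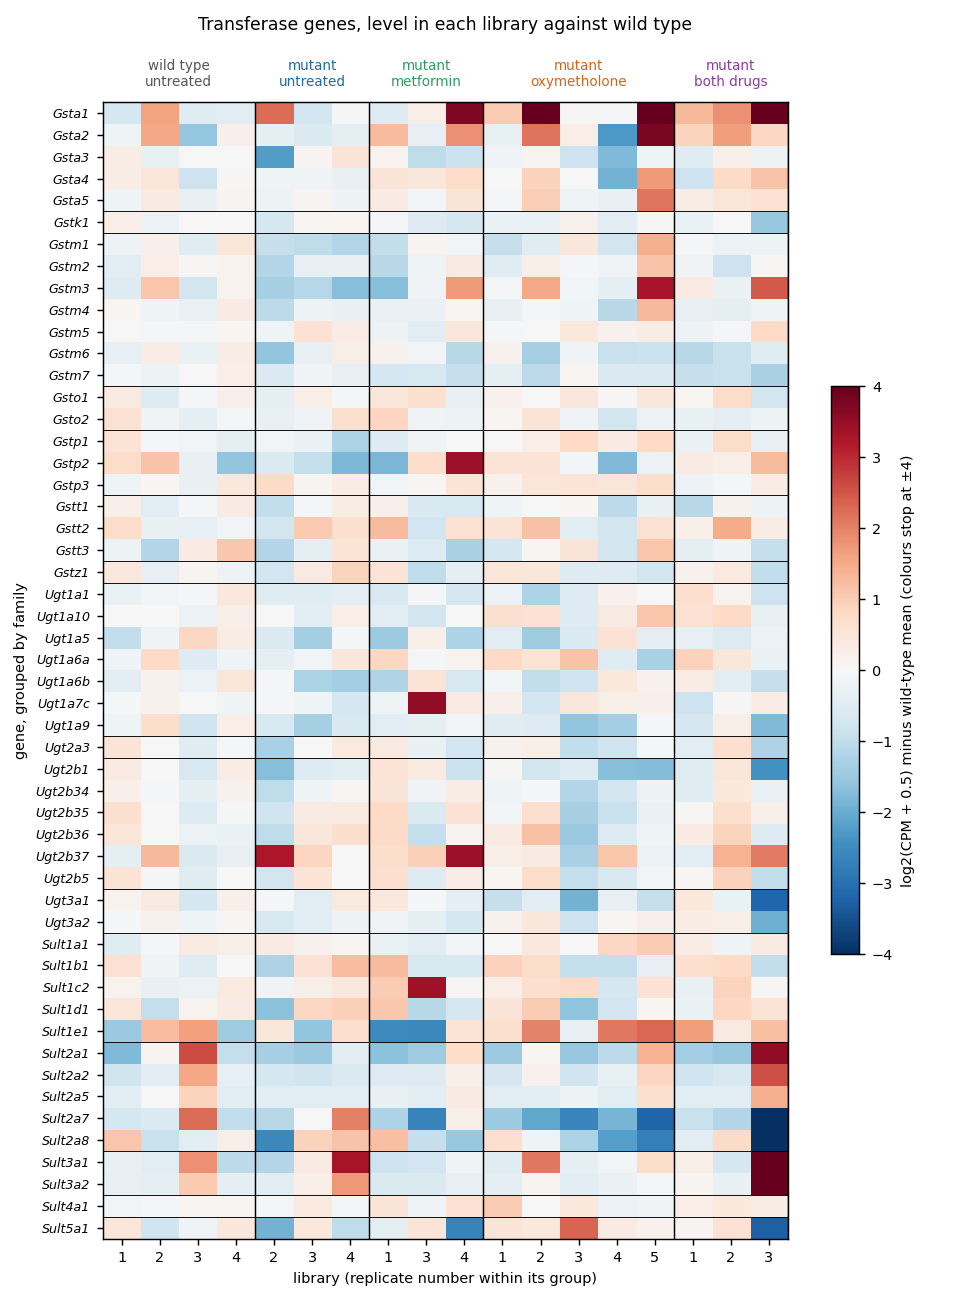
Heat map of all 52 genes (rows, by family) in 18 libraries (columns, by group), as log2(CPM + 0.5) minus the mean of the 4 wild-type libraries, with colours that stop at 4 in either direction. Strong colour sits in single libraries, such as oxymetholone replicate 5 for Gsta1 and Gstm3 and combination replicate 3 for Sult3a1 and Sult2a7, more than in whole groups.

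No member passed an adjusted p of 0.05 in any of 8 edgeR quasi-likelihood tests over 16115 genes, with Benjamini-Hochberg adjustment. The untreated mutant against wild type comparison called 0 of 52 members and 0% of all genes, and 2 members had an unadjusted p under 0.05 (2.58% of all genes did). Metformin against untreated mutant called 0 members and 0% of all genes, with 4 members under an unadjusted 0.05 (5.67% of all genes). Oxymetholone against untreated mutant called 0 members and 0.0434% of all genes, with 7 members under an unadjusted 0.05 (4.8% of all genes). Both drugs against untreated mutant called 0 members and 0.0186% of all genes, with 5 under an unadjusted 0.05 (5.46%). DESeq2 and limma-voom also called 0 members in each of these 4 comparisons. The 3 drug comparisons share the 3 untreated mutant libraries, so their values are not independent of each other.

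Signs of the log2 differences were counted without a test. In untreated mutants 35 of 52 members lay lower than in wild type, against 52.2% of all genes. Of the UDP-glucuronosyltransferase genes 14 of 16 lay lower (median log2 difference −0.27, all genes −0.02), and of the glutathione transferase genes 16 of 22 lay lower (median −0.32), while 9 of 14 sulfotransferase genes lay higher (median 0.17). That count rested in part on 1 library and on scaling: without untreated mutant replicate 2, 28 of 52 members, 10 of 16 UDP-glucuronosyltransferase genes and 13 of 22 glutathione transferase genes lay lower, with DESeq2's size factors 11 of 16 UDP-glucuronosyltransferase genes did, and with limma-voom 27 of 52 members did. With metformin 32 of 52 members lay higher than in untreated mutants (53.9% of all genes), which became 26 without untreated mutant replicate 2 and 25 with limma-voom. With oxymetholone 31 of 52 lay higher (52.9% of all genes), which became 29 without untreated mutant replicate 2 and 26 with limma-voom. With both drugs 37 of 52 lay higher (50.4% of all genes). The last count was 29 without untreated mutant replicate 2, 33 without combination replicate 3 and 28 with limma-voom.

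**Figure D2:**
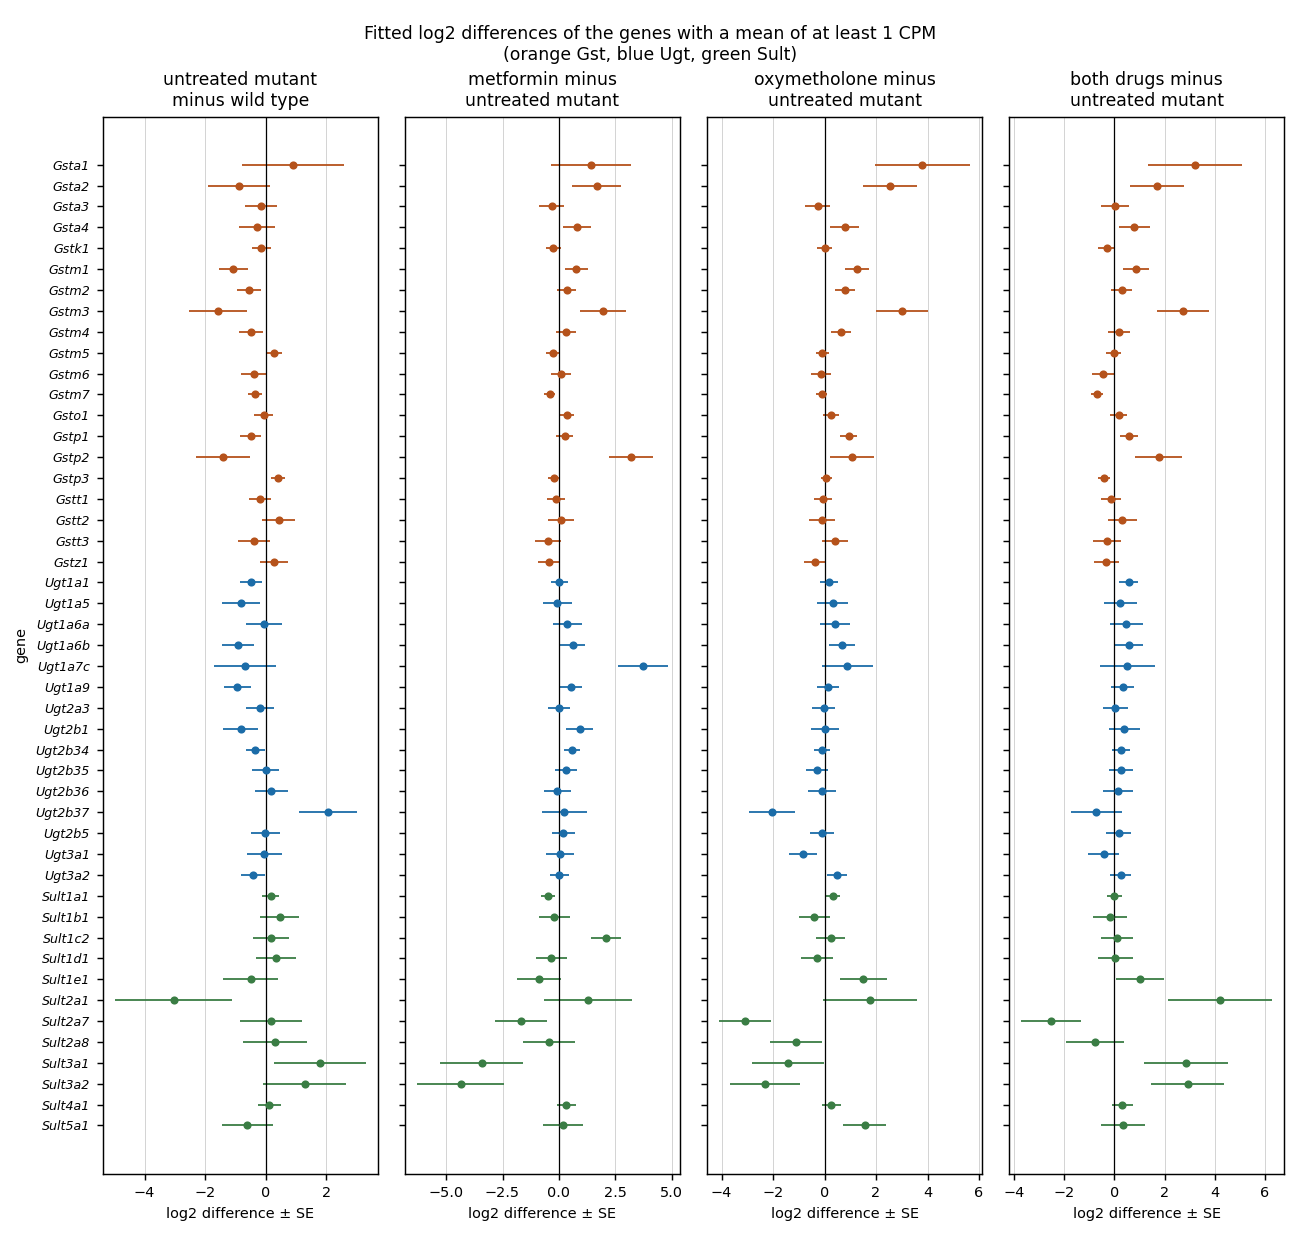
Fitted log2 differences ± SE from edgeR for the 47 genes that averaged 1 CPM or more, in 4 panels with separate horizontal scales: untreated mutant minus wild type, and metformin, oxymetholone and both drugs minus untreated mutant. Gstm3 lies to the left of 0 in the first panel (−1.56) and to the right in the other 3 (1.96, 2.998 and 2.72, each smaller without its highest library), and Sult2a7 lies to the left with oxymetholone and with both drugs (−3.09 and −2.53).

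Among the glutathione transferases, Gstm1 and Gstm3 of the mu class were lower in all 3 untreated mutants than in all 4 wild types. Gstm1, the most abundant mu-class transferase, had 824, 1098, 687 and 1353 CPM in wild type and 507, 476 and 428 CPM in untreated mutants. It had 479, 1042 and 889 CPM with metformin, 500, 681, 1304, 557 and 2547 CPM with oxymetholone and 925, 806 and 835 CPM with both drugs. All untreated mutants lay below all wild types and below all mutants given both drugs, while the metformin and oxymetholone groups overlapped them. The log2 difference of untreated mutant from wild type was −1.07 ± 0.48 (edgeR adjusted p = 0.973), and −0.89 to −1.21 over the alternative fits. With oxymetholone it was 1.249 ± 0.47 (edgeR adjusted p = 0.877) and with both drugs 0.86 ± 0.51 (edgeR adjusted p = 0.973). The oxymetholone difference was 0.69 without oxymetholone replicate 5.

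Gstm3, a mu-class gene that NRF2 is known to induce, had the same gap with a wider spread. Its values were 83.9, 256, 71.8 and 132 CPM in wild type, 47.7, 54.1 and 36.2 CPM in untreated mutants and 36.2, 109 and 393 CPM with metformin. They were 115, 345, 110, 90.5 and 1176 CPM with oxymetholone and 150, 99.2 and 660 CPM with both drugs. The untreated mutants lay below every wild-type, oxymetholone and combination library, and metformin replicate 1 lay at their low end. The log2 differences were −1.56 ± 0.96 for genotype, 1.96 ± 1.01 with metformin, 2.998 ± 1.004 with oxymetholone and 2.72 ± 1.04 with both drugs (edgeR adjusted p = 0.973, 0.912, 0.784 and 0.851). Without metformin replicate 4 the metformin difference was 0.66, without oxymetholone replicate 5 the oxymetholone difference was 1.85, and without combination replicate 3 the combination difference was 1.44. Averaged over mutants with and without metformin, oxymetholone gave 1.88 ± 0.69 (edgeR adjusted p = 0.746; 1.24 without combination replicate 3), a test that called 0 members and 0.124% of all genes, with 8 members under an unadjusted 0.05 (5.04% of all genes).

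Gstm7, also of the mu class, stood lower in all 6 libraries with metformin. It had 103, 93.8, 110 and 131 CPM in wild type, 72.0, 98.6 and 86.2 CPM in untreated mutants, 66.2, 70.3 and 57.7 CPM with metformin and 57.1, 58.5 and 43.6 CPM with both drugs. Oxymetholone libraries ranged from 52.5 to 114 CPM with a median of 73.4 CPM. Those 6 libraries lay below the 3 untreated mutants and below the 4 wild types, and they overlapped the oxymetholone group. The log2 difference was −0.40 ± 0.25 with metformin and −0.69 ± 0.25 with both drugs (edgeR adjusted p = 0.927 and 0.817). Over mutants with and without oxymetholone it was −0.49 ± 0.17 (edgeR adjusted p = 0.582), in a test that called 0 members and 0% of all genes, with 5 members under an unadjusted 0.05 (6.17% of all genes). Gstm2, Gstm4, Gstm5 and Gstm6 ranged between 13.6 CPM (Gstm5) and 314 CPM (Gstm2) over all libraries. Gstm2 and Gstm4 were both highest in oxymetholone replicate 5, at 314 and 165 CPM, against at most 182 and 84.1 CPM elsewhere.

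The alpha class held the most abundant member and the widely varying Gsta1 and Gsta2. Gsta3 had 2638 ± 430 CPM in wild type (SD, n = 4), 2350 ± 1625 in untreated mutants (n = 3), 1880 ± 891 with metformin (n = 3), 1948 ± 820 with oxymetholone (n = 5) and 2393 ± 601 with both drugs (n = 3). Its groups overlapped, with the lowest value, 551 CPM, in untreated mutant replicate 2. Gsta1 and Gsta2 are close copies known for strong induction by electrophiles through NRF2. Gsta1 had 0.368, 3.77, 0.502 and 0.540 CPM in wild type, 6.04, 0.328 and 0.844 CPM in untreated mutants and 0.474, 1.19 and 18.0 CPM with metformin. It had 2.32, 37.9, 0.952, 0.852 and 128 CPM with oxymetholone and 2.92, 4.44 and 60.4 CPM with both drugs. High values belonged to single libraries, and every group overlapped the untreated mutants.

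Gsta2 rested on the same libraries in part. It had 10.4, 35.1, 3.73 and 13.5 CPM in wild type, 8.81, 7.66 and 8.88 CPM in untreated mutants, 29.2, 9.28 and 43.0 CPM with metformin, 9.41, 55.0, 14.3, 1.99 and 166 CPM with oxymetholone and 22.2, 38.9 and 21.1 CPM with both drugs. The metformin and combination libraries all lay above the untreated mutants, and oxymetholone libraries lay on both sides of them. The log2 difference with oxymetholone was 2.55 ± 1.06 for Gsta2 and 3.80 ± 1.84 for Gsta1 (edgeR adjusted p = 0.877 for both). Without oxymetholone replicate 5 these were 1.26 and 2.11, and the Gsta1 value was 5.80 without untreated mutant replicate 2. With both drugs they were 1.70 ± 1.09 and 3.21 ± 1.87 (edgeR adjusted p = 0.976 and 0.973), and the Gsta1 value was 0.59 without combination replicate 3 and 5.22 without untreated mutant replicate 2.

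Gsta4, the transferase specialised in the lipid peroxidation product 4-hydroxynonenal, had 71.3, 81.3, 32.0 and 59.7 CPM in wild type, 51.5, 51.5 and 46.5 CPM in untreated mutants and 82.9, 79.4 and 96.2 CPM with metformin. It had 57.6, 109, 57.5, 15.1 and 188 CPM with oxymetholone and 32.6, 98.1 and 129 CPM with both drugs. The 3 metformin libraries lay above the 3 untreated mutants, at a log2 difference of 0.79 ± 0.62 (edgeR adjusted p = 0.927). The promoters of Gsta1 and Gsta2 are shown because the 2 genes reached their highest level in the same library. Each line gives the 250 bases before the start of transcription, 5′ to 3′ on the strand of the gene, from RefSeq (GRCm38.p6), and the capitals mark the only run of at least 20 bases present in both.
Gsta1, chr9:78230419-78230668, plus strand: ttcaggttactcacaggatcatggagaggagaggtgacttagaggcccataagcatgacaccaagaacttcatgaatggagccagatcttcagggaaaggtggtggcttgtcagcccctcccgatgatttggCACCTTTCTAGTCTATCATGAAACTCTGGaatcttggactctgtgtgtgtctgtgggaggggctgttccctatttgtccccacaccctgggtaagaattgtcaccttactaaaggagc
Gsta2, chr9:78347146-78347395, minus strand: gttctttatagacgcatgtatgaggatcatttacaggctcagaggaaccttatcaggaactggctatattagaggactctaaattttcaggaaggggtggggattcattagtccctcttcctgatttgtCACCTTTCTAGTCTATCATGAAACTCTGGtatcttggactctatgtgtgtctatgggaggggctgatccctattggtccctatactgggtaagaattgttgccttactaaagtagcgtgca
The capitals begin 118 bases before the start in Gsta1 and 121 bases before it in Gsta2, and in an alignment of the 2 windows 184 positions were identical, 55 differed and 22 faced a gap. Neither window held the core of the antioxidant response element, searched as TGACNNNGC on both strands, which was present in 10.2% of 32851 RefSeq promoter windows of this length. Of the 43 members with a promoter in that set, Gsta3, Gstm5 and Gstm7 held it, in 3 of the 53 windows of members. The core of the AHR binding site, searched as GCGTG on both strands, was present in 28.2% of the windows. It was present in 9 of the 53 windows of members, from 8 genes, among them Gsta2, Gstm1 and Gstp1. These are matches of letters and not measured binding.

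In the pi class, oxymetholone mutants lay above untreated mutants in Gstp1. It had 1454, 969, 918 and 769 CPM in wild type, 929, 835 and 414 CPM in untreated mutants, 705, 911 and 986 CPM with metformin, 1012, 1193, 1721, 1262 and 1744 CPM with oxymetholone and 822, 1652 and 798 CPM with both drugs. The 5 oxymetholone libraries all exceeded the 3 untreated mutants and the 3 metformin libraries, and overlapped wild type and the combination. The log2 difference was 0.93 ± 0.34 with oxymetholone and 0.63 ± 0.25 averaged over mutants with and without metformin (edgeR adjusted p = 0.877 and 0.818), and the latter was 0.42 without combination replicate 2. Gstm3, Gstp1 and Sult2a7 were the 3 members whose oxymetholone and untreated mutant libraries did not overlap, where 3.46% of all genes did not.

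Gstp2 lies beside Gstp1 and encodes a nearly identical protein. It had 36.2, 48.8, 17.6 and 6.90 CPM in wild type, 14.2, 11.0 and 5.87 CPM in untreated mutants, 5.68, 35.4 and 243 CPM with metformin, 6.04 to 32.1 CPM with oxymetholone (median 20.1) and 27.2, 26.3 and 52.6 CPM with both drugs. The high metformin value came from replicate 4 alone. Its log2 difference with metformin was 3.19 ± 0.99 (edgeR adjusted p = 0.579) and 0.99 without that library. All combination libraries lay above all untreated mutants (1.77 ± 0.94, edgeR adjusted p = 0.938). Gstp3, which shares no 50-base stretch with the other 2, ranged only from 17.2 to 36.0 CPM over all 18 libraries. Its log2 difference was 0.40 ± 0.23 for genotype and −0.35 ± 0.17 for metformin averaged over mutants with and without oxymetholone (edgeR adjusted p = 0.973 and 0.809), and the first was 0.19 without untreated mutant replicate 2. The first 90 coding bases of Gstp1 and Gstp2 are printed from the GENCODE vM21 transcripts (GRCm38) because reads of the 2 genes can be confused, with capitals where they differ.
Gstp1: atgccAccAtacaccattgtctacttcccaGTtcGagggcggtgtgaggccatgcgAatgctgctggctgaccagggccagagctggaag
Gstp2: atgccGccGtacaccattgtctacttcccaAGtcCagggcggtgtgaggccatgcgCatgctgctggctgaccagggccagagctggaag
The coding sequences were identical at 618 of 630 bases (98.1%), and 62.3% of the 50-base stretches of the Gstp1 transcript occurred in another gene, so part of the reads of each could have been assigned to the other. The sources used here do not state how the counting treated such reads. The same limit holds for Gsta1 (89.7% of stretches shared, 82.9% with Gm3776, which is not a member) and Gsta2 (64.2%). More than 20% of stretches were shared for 19 of the 52 members. Among them were Gstm1 (23.2%), Gstm3 (28.8%), Sult2a1 (33.2%) and Ugt2b5 (41.7%).

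**Figure D3:**
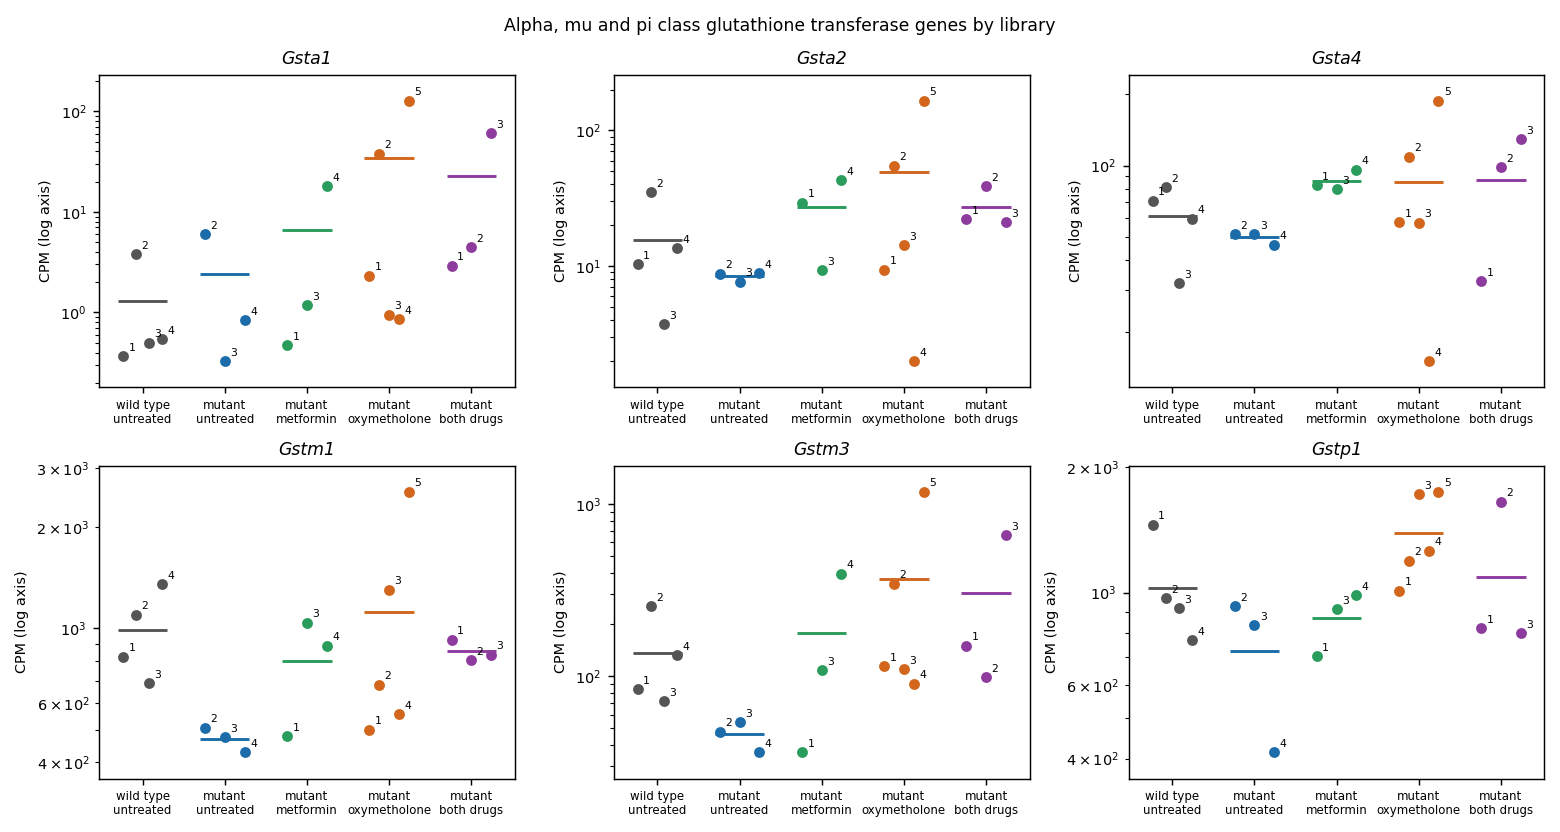
CPM on a log axis of Gsta1, Gsta2, Gsta4, Gstm1, Gstm3 and Gstp1 in each library, with points numbered by replicate and a bar at the mean of each group. Untreated mutants lie below all wild types for Gstm1 and Gstm3, and oxymetholone replicate 5 is the highest of the 18 libraries in every panel.

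In the theta, omega, kappa and zeta classes the libraries of the groups overlapped in all 4 comparisons. Gstt1 ranged from 145 to 393 CPM, Gstt2 from 56.2 to 274 CPM and Gstt3 from 11.4 to 62.3 CPM over the 18 libraries. Gstk1, the transferase of mitochondria and peroxisomes, ranged from 64.1 CPM in combination replicate 3 to 220 CPM in wild type replicate 1. Gsto1, known for dehydroascorbate reductase activity, ranged from 36.1 to 101 CPM, and Gsto2 had a mean of 0.549 CPM. Gstz1 had 1517 ± 359 CPM in wild type (n = 4) and 1836 ± 935 CPM in untreated mutants (n = 3), a difference within the SD.

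The UDP-glucuronosyltransferases of the Ugt1a family are made from 1 locus in which each gene has its own promoter and first exon, joined to shared later exons. Between 58.2 and 100% of the 50-base stretches of the 7 Ugt1a transcripts occurred in another gene, with the 100% for Ugt1a6a, so levels of single Ugt1a genes are uncertain. The summed level of the 7 genes was 138 ± 50.7 CPM in wild type (SD, n = 4), 75.6 ± 17.8 CPM in untreated mutants (n = 3), 109 ± 12.7 CPM with metformin (n = 3), 86.7 ± 27.0 CPM with oxymetholone (n = 5) and 97.9 ± 52.2 CPM with both drugs (n = 3). All 7 had a negative log2 difference in untreated mutants (median −0.68) and a positive one with oxymetholone (median 0.40) and with both drugs (median 0.52). None of these differences was called, and the genotype values ran from −0.94 to −0.02. Since the transcripts share exons, the same reads could count for more than 1 gene, so the 7 signs are not independent. Without untreated mutant replicate 2, with DESeq2's size factors and with limma-voom the genotype count was 6 of 7, and with limma-voom the oxymetholone and combination counts were 6 of 7. The same 2 counts were 6 of 7 without oxymetholone replicate 5 and without combination replicate 3, in that order. With metformin 5 of 7 were positive, and 3 were without metformin replicate 3. Ugt1a6b had a log2 difference of −0.92 ± 0.53 for genotype (edgeR adjusted p = 0.973), and −1.58 without untreated mutant replicate 2.

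Ugt1a9, the most abundant of the family, had 94.9, 175, 60.9 and 128 CPM in wild type, 69.4, 42.0 and 67.7 CPM in untreated mutants and 79.6, 81.9 and 99.7 CPM with metformin. It had 76.9, 75.2, 35.4, 41.2 and 101 CPM with oxymetholone and 66.9, 127 and 31.0 CPM with both drugs. The metformin libraries lay above the untreated mutants, while wild type replicate 3 lay among the mutants. The log2 difference was −0.94 ± 0.45 for genotype and 0.54 ± 0.47 with metformin (edgeR adjusted p = 0.973 and 0.927), and the latter was 0.35 without untreated mutant replicate 3.

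Ugt1a1, the enzyme that conjugates bilirubin, had 9.02, 10.1, 10.5 and 14.6 CPM in wild type and 7.71, 7.60 and 8.29 CPM in untreated mutants. It had 6.999, 10.2 and 6.69 CPM with metformin, 9.21, 4.38, 7.43, 12.3 and 10.9 CPM with oxymetholone and 17.5, 11.9 and 5.88 CPM with both drugs. Its untreated mutants lay below all wild types, at a log2 difference of −0.49 ± 0.35 (edgeR adjusted p = 0.973). Gstm1, Gstm3, Ugt1a1 and Ugt3a2 were the 4 members whose untreated mutant libraries did not overlap wild type, all lower, where 3.82% of all genes lay lower without overlap and 6.32% did not overlap in either direction.

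Ugt1a7c was low in 17 libraries and high in 1. Metformin replicate 3 had 11.1 CPM, from 336 counts, and the other 17 libraries had 0.0495 to 0.857 CPM. The log2 difference with metformin was 3.73 ± 1.10 (edgeR adjusted p = 0.579) and fell to 0.86 when that library was left out. The same library had 237 CPM of Krt19, 155 CPM of Muc1 and 43.1 CPM of Epcam, markers of bile duct cells, against at most 13.1, 3.79 and 16.6 CPM in any other library. Of 11 bile duct markers measured 9 lay higher with metformin than in untreated mutants, and their sum lay between 98.2 and 319 CPM in wild type, between 108 and 1540 CPM in untreated mutants, between 78.4 and 830 CPM with metformin, between 87.3 and 479 CPM with oxymetholone, and between 101 and 767 CPM with both drugs. Metformin replicate 3 had the 830, and in untreated mutant replicate 2 a single marker, Spp1, made 1440 of the 1540 CPM. Cldn4 and Cftr were at 0 in untreated mutant replicate 3 and oxymetholone replicate 3, and no bile duct marker was at 0 in the metformin group. The part of these cells in the Ugt1a7c value was not tested.

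The promoters of 3 Ugt1a genes are shown because levels differ widely within the locus: Ugt1a9 and Ugt1a1 are the most abundant, and Ugt1a7c is at most 0.857 CPM outside 1 library. Each is the 250 bases before the start of transcription listed by RefSeq (GRCm38.p6). Capitals mark the half-site of the hepatocyte factor HNF1, searched as GTTAAT on both strands. For Ugt1a1 a stretch just after the listed start was found in a GENCODE vM21 transcript of the gene. For Ugt1a9 and Ugt1a7c it was not, so whether their windows lie at a true start is uncertain.
Ugt1a9, chr1:88070529-88070778, plus strand: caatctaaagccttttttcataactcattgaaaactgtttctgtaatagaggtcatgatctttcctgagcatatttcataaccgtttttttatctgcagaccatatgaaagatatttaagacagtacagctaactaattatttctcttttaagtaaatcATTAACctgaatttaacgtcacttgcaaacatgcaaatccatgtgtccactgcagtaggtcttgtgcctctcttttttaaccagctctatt
Ugt1a1, chr1:88211709-88211958, plus strand: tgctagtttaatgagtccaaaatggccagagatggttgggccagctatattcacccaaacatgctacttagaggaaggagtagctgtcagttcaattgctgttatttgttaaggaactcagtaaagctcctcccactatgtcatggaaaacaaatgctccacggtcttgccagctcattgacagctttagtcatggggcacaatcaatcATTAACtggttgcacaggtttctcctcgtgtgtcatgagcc
Ugt1a7c, chr1:88094751-88095000, plus strand: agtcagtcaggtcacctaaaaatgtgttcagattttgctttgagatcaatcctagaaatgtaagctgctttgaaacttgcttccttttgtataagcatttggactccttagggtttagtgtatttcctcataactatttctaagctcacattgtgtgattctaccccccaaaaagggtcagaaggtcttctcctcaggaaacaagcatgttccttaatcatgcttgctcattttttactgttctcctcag
The half-site began 91 bases before the listed start of Ugt1a9 and 41 bases before that of Ugt1a1, and these letters were not in the window of Ugt1a7c. They were present in 6.43% of the 32851 promoter windows and in 11 of the 53 windows of members. Counted by gene, 4 of the 6 Ugt1a genes with a promoter in the set (Ugt1a1, Ugt1a6a, Ugt1a9 and Ugt1a10) and 11 of the 43 members in all held them. Of these, Ugt1a10 and Ugt1a6a were low, at means of 0.698 and 2.57 CPM over all libraries. A link between the half-site and the level of a gene was not tested.

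The Ugt2b enzymes, known for conjugating steroid hormones and bile acids, made up most of the glucuronosyltransferase RNA. Their summed level was 4609 ± 1171 CPM in wild type (n = 4), 4350 ± 1833 in untreated mutants (n = 3), 5157 ± 1923 with metformin (n = 3), 4044 ± 2009 with oxymetholone (n = 5) and 4994 ± 2419 with both drugs (n = 3). Group means differed by less than the SDs within groups. Ugt2b36 ranged from 576 CPM in oxymetholone replicate 3 to 3623 CPM in oxymetholone replicate 2, and Ugt2b5 from 537 to 2009 CPM. Ugt2b34 and Ugt2b35 ranged from 240 to 779 CPM and from 182 to 803 CPM, both lowest in oxymetholone replicate 3 and highest in metformin replicate 1.

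Ugt2b1 had 1028, 798, 512 and 975 CPM in wild type, 245, 558 and 594 CPM in untreated mutants, 1175, 1031 and 437 CPM with metformin, 820, 483, 564, 245 and 238 CPM with oxymetholone and 575, 1117 and 149 CPM with both drugs. Wild type replicate 3 lay among the untreated mutants, and every drug group overlapped them. Ugt2b37 was the member of the family with the largest fitted genotype difference, 2.05 ± 0.97 (edgeR adjusted p = 0.973), and it rested on 1 library. It had 1.01, 4.24, 0.788 and 1.04 CPM in wild type and 17.6, 3.01 and 1.43 CPM in untreated mutants, and without untreated mutant replicate 2 the difference was 0.31. Its oxymetholone difference, −2.04 ± 0.90 (edgeR adjusted p = 0.877), became −0.30 without the same library.

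Ugt3a2, of the family that uses UDP-sugars other than UDP-glucuronic acid, had 385, 446, 348 and 404 CPM in wild type and 254, 286 and 343 CPM in untreated mutants. It had 354, 298 and 242 CPM with metformin, 446, 538, 220, 415 and 455 CPM with oxymetholone and 488, 462 and 102 CPM with both drugs. The gap between wild type and untreated mutants was narrow (348 against 343 CPM), and oxymetholone replicate 3 and combination replicate 3 lay far below the rest of their groups. The log2 difference for genotype was −0.43 ± 0.40 (edgeR adjusted p = 0.973). Ugt3a1 was also lowest in combination replicate 3, at 1.36 CPM against 4.05 to 21.9 CPM elsewhere. Ugt2a3 ranged from 127 to 491 CPM.

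**Figure D4:**
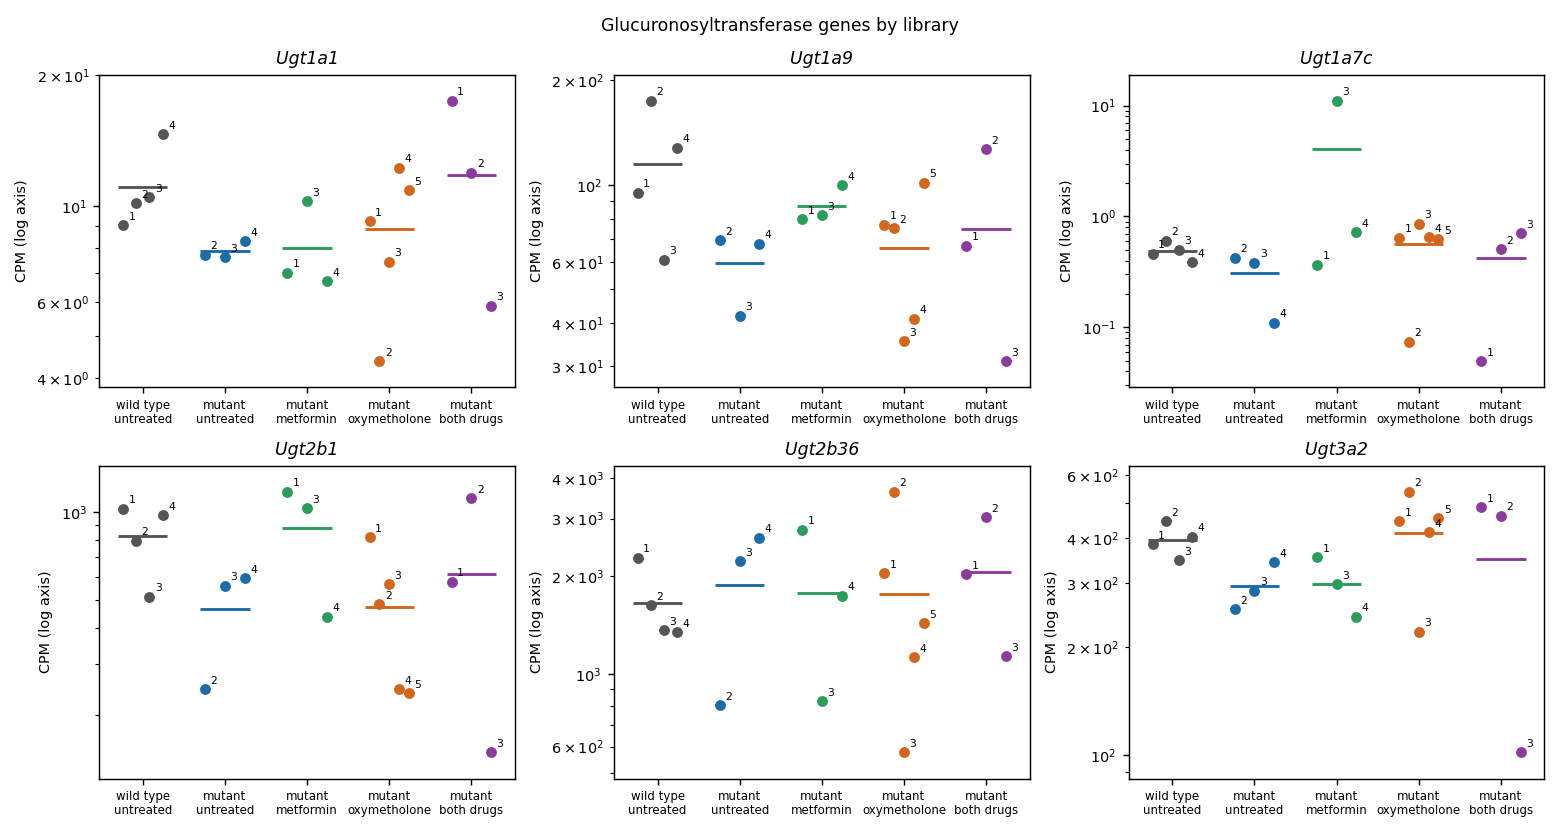
CPM on a log axis of Ugt1a1, Ugt1a9, Ugt1a7c, Ugt2b1, Ugt2b36 and Ugt3a2 in each library, with points numbered by replicate and a bar at the mean of each group. Metformin replicate 3 stands alone for Ugt1a7c (11.1 CPM), and untreated mutants form a tight group below wild type for Ugt1a1 (7.60 to 8.29 CPM).

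Among the sulfotransferases, single libraries set most of the large differences. Sult1e1, the estrogen sulfotransferase, had 61.7, 409, 536 and 64.3 CPM in wild type, 235, 56.7 and 276 CPM in untreated mutants, 28.8, 28.2 and 250 CPM with metformin, 268, 686, 136, 738 and 854 CPM with oxymetholone and 551, 219 and 394 CPM with both drugs. Oxymetholone libraries reached the highest values, yet each group overlapped the untreated mutants. The log2 difference averaged over mutants with and without metformin was 1.71 ± 0.67 (edgeR adjusted p = 0.818), and 2.64 without metformin replicate 4. With oxymetholone alone it was 1.504 ± 0.90 (edgeR adjusted p = 0.877).

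Sult1a1, which sulfates phenols, had 371, 332 and 308 CPM in untreated mutants and 242, 214 and 270 CPM with metformin, so all metformin libraries lay lower. Wild type had 212, 277, 378 and 337 CPM and overlapped both, and oxymetholone and combination libraries ranged from 267 to 592 CPM. The log2 difference with metformin was −0.48 ± 0.30 (edgeR adjusted p = 0.927). Gsta2, Gsta4, Gstm7, Sult1a1, Sult2a2 and Ugt1a9 were the 6 members whose metformin and untreated mutant libraries did not overlap, where 7.26% of all genes did not. Sult2a2 averaged only 0.535 CPM, and it is listed among the low genes.

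Sult1c2 had 49.4 CPM in metformin replicate 3 and 2.47 to 9.10 CPM in the other 17 libraries. Its log2 difference with metformin was 2.09 ± 0.66 (edgeR adjusted p = 0.579) and 0.45 without that library, the same library that held the high Ugt1a7c and bile duct marker values. The part of those cells in the Sult1c2 value was not tested either. Sult1b1 and Sult1d1 ranged from 32.96 to 190 CPM and from 142 to 932 CPM, both lowest in untreated mutant replicate 2 and highest in metformin replicate 1. Sult4a1 ranged from 1.05 to 3.20 CPM.

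The Sult2 genes encode sulfotransferases of hydroxysteroids and bile acids. Sult2a8 had 3642, 914, 1239 and 1987 CPM in wild type, 284, 3219 and 3692 CPM in untreated mutants and 3864, 893 and 591 CPM with metformin. It had 2698, 1489, 697, 371 and 255 CPM with oxymetholone and 1274, 2865 and 39.2 CPM with both drugs. Levels ran from 284 to 3692 CPM within the untreated mutants alone, and all groups overlapped. The log2 difference was −1.12 ± 1.01 with oxymetholone and −0.78 ± 1.16 with both drugs (edgeR adjusted p = 0.877 and 0.998). Leaving out 1 library moved the first between −0.67 (without untreated mutant replicate 4) and −1.77 (without oxymetholone replicate 1), and the second between −0.21 (without combination replicate 3) and −1.87 (without combination replicate 2). The second was also −1.31, −0.51 and −0.33 without untreated mutant replicates 2, 3 and 4.

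Sult2a7 was the member with the smallest unadjusted p in the oxymetholone comparison. It had 20.6, 22.5, 161 and 16.9 CPM in wild type, 15.3, 33.6 and 138 CPM in untreated mutants, 14.1, 4.89 and 39.7 CPM with metformin, 11.9, 7.64, 4.95, 8.88 and 3.22 CPM with oxymetholone and 17.8, 14.6 and 0.259 CPM with both drugs. Every oxymetholone library lay below every wild-type and untreated mutant library. The log2 difference was −3.09 ± 1.0003 (edgeR adjusted p = 0.714), and −1.74 without untreated mutant replicate 4, the library with 138 CPM. With both drugs it was −2.53 ± 1.18 (edgeR adjusted p = 0.900), and −1.18 without the same library. Averaged over mutants with and without metformin, oxymetholone gave −1.97 ± 0.77 (edgeR adjusted p = 0.803), and without untreated mutant replicate 4 that value was −1.30.

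Sult2a1, Sult3a1 and Sult3a2, known to be higher in female than in male mouse liver, were low in most of these male livers and highest in combination replicate 3. Sult3a1, which sulfates amines, had 102 CPM there, against 1.09 and 0.357 CPM in the other 2 combination libraries and at most 13.0 CPM (untreated mutant replicate 4) in all others. Sult3a2 had 17.5 CPM there, from 746 counts, and at most 1.94 CPM elsewhere. Sult2a1 had 19.3 CPM there and at most 9.85 CPM elsewhere, in wild type replicate 3. Sult2a2 and Sult2a5 were also highest in combination replicate 3, at 4.66 and 1.34 CPM.

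The difference with both drugs was 4.21 ± 2.07 for Sult2a1, 2.92 ± 1.46 for Sult3a2 and 2.85 ± 1.68 for Sult3a1 on the log2 scale (edgeR adjusted p = 0.918, 0.920 and 0.973). Without combination replicate 3 all 3 were negative (−1.44, −1.96 and −2.72), and without untreated mutant replicate 4 they were 5.43, 4.94 and 5.74. Metformin libraries held 0, 0 and 3 counts of Sult3a2, so no ratio is given for metformin. The interaction of the 2 drugs in Sult3a1 was 7.70 ± 2.40 (edgeR adjusted p = 0.863), with values of 2.14 without combination replicate 3 and 4.82 without untreated mutant replicate 4. The interaction test called 0 members and 0% of all genes, with 4 members under an unadjusted 0.05 (3% of all genes).

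Other genes known for higher levels in female liver stood high in the same library. Cyp3a16 had 46.1 CPM in combination replicate 3 and at most 0.704 CPM elsewhere, Cyp3a41a had 82.9 against at most 11.5 CPM, and Cyp3a44 had 73.6 against at most 13.7 CPM. Of the 19 female-biased genes measured outside the 3 enzyme groups, 16 lay higher with both drugs than in untreated mutants (median log2 difference 1.18), while 11 did with limma-voom and 6 did without combination replicate 3 (median −0.28). Their sum lay between 224 and 512 CPM in wild type, between 295 and 391 CPM in untreated mutants, between 265 and 428 CPM with metformin, between 437 and 1942 CPM with oxymetholone, and between 477 and 1447 CPM with both drugs. Oxymetholone replicate 5 had the 1942 CPM, above the 1447 CPM of combination replicate 3, yet only 1.76 CPM of Sult3a1. Male-biased genes summed to 4191 CPM in combination replicate 3 and to at least 11403 CPM in every other library. None of these list members was called in the 4 comparisons, and Cyp2a4, a female-biased steroid hydroxylase gene, was called higher with oxymetholone averaged over mutants with and without metformin (log2 difference 3.99 ± 0.74, edgeR adjusted p = 0.0444). The part of these genes in the Sult values was not tested. Of the 14 sulfotransferase genes, 10 lay higher with both drugs, and 5 did without combination replicate 3.

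Sult3a1 and Sult3a2 are neighbouring copies, and the first 90 coding bases from GENCODE vM21 (GRCm38) are shown, with capitals where they differ, because the 2 genes stood high together.
Sult3a1: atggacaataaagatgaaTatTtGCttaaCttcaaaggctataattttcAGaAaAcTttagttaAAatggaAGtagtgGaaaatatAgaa
Sult3a2: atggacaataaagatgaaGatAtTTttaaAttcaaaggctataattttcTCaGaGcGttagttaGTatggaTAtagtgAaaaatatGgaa
They differed at 16 of these bases and were identical at 799 of 879 coding bases (90.9%). Only 6.15% of the 50-base stretches of the Sult3a1 transcript and 7.72% of those of Sult3a2 occurred in another gene, so most reads could tell them apart, unlike those of Gstp1 and Gstp2.

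Sult5a1 had 48.2, 19.7, 31.7 and 47.6 CPM in wild type, 8.88, 46.6 and 16.8 CPM in untreated mutants, 27.1, 50.2 and 5.04 CPM with metformin, 49.5, 46.8, 176, 43.2 and 39.5 CPM with oxymetholone and 37.4, 52.1 and 3.17 CPM with both drugs. Apart from oxymetholone replicate 3, the oxymetholone libraries lay between 39.5 and 49.5 CPM and overlapped wild type and the untreated mutants. The log2 difference with oxymetholone was 1.56 ± 0.84 (edgeR adjusted p = 0.877), with values of 0.89 without oxymetholone replicate 3 and 2.47 without untreated mutant replicate 3. In the authors' deposited table the same comparison of Sult5a1 had a log2 fold change of 1.69 with an adjusted p of 0.058, the smallest of the 52 members in any of its 7 comparisons. The authors' deposited table called 0 of 52 members in each of the 7, while it called 47 of all genes for oxymetholone.

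**Figure D5:**
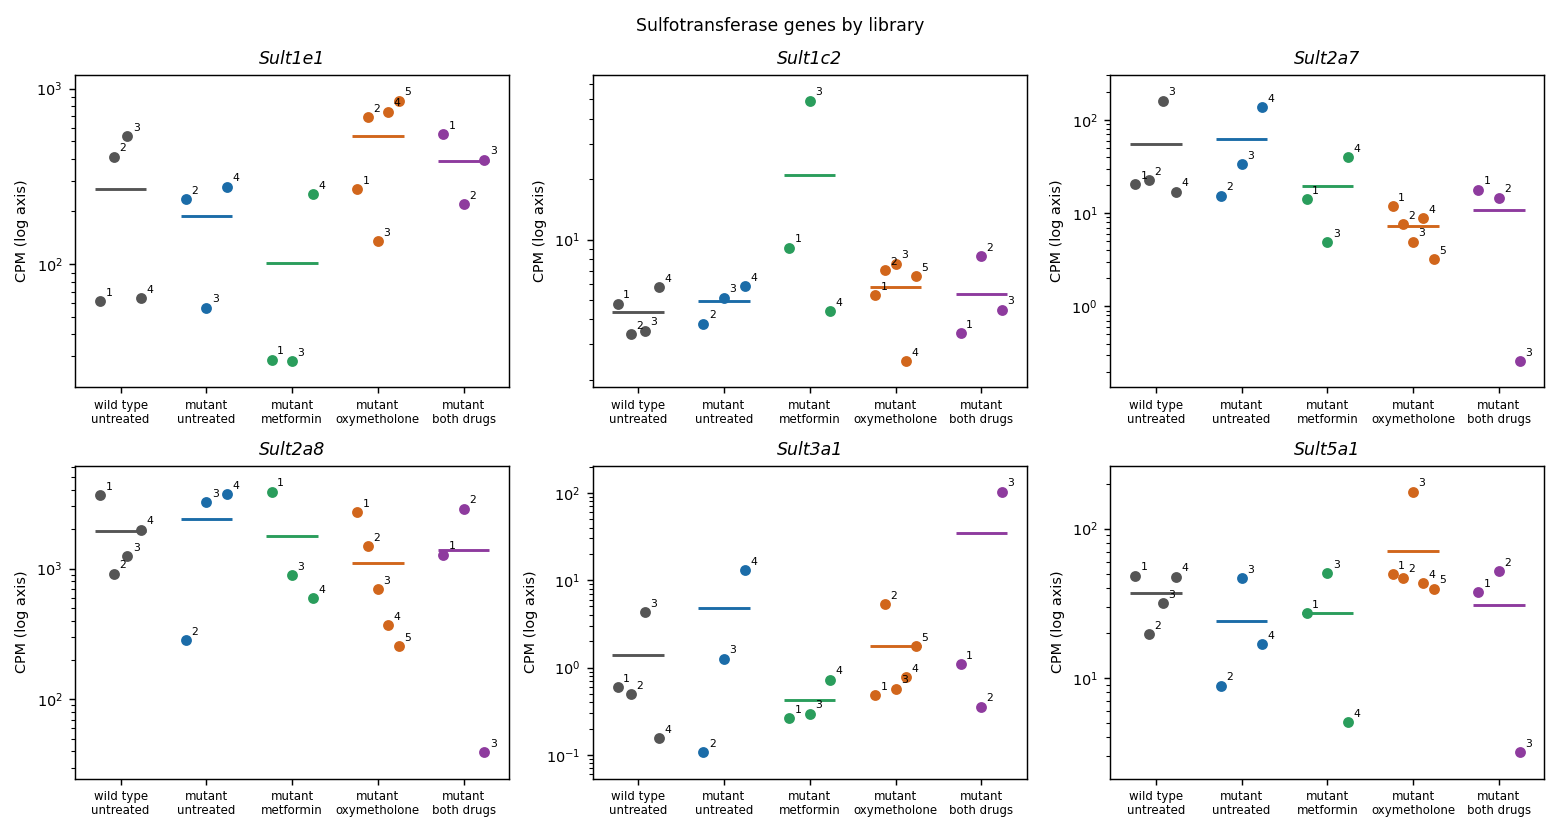
CPM on a log axis of Sult1e1, Sult1c2, Sult2a7, Sult2a8, Sult3a1 and Sult5a1 in each library, with points numbered by replicate and a bar at the mean of each group. Combination replicate 3 is the highest library for Sult3a1 (102 CPM) and the lowest for Sult2a7, Sult2a8 and Sult5a1, and oxymetholone libraries lie below all untreated mutants for Sult2a7.

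Gsta2, Gsta5, Gstm1, Gstm3, Gstm7 and Gstp2 were the 6 members whose combination and untreated mutant libraries did not overlap, all but Gstm7 higher, where 8.66% of all genes did not overlap. All 6 are glutathione transferase genes, but they are 11.5% of the members, and a difference between the classes was not tested. Gsta5 averaged only 0.305 CPM and shared 48.0% of its 50-base stretches, 35.2% with Gsta2, so these 2 are not independent. A test for any difference among the 5 groups called 0 members and 0.18% of all genes, with 7 members under an unadjusted 0.05 (5.8% of all genes). The smallest edgeR adjusted p values among members were 0.168 for Sult3a2, 0.255 for Ugt1a7c and 0.274 for Gstm7. In this test DESeq2 called 4 members, Ugt1a7c, Sult3a2, Sult1c2 and Gstm7, and limma-voom called 1, Gstm7. Sult3a2, Ugt1a7c and Sult1c2 are the genes with a high value in 1 library, and without combination replicate 3 the adjusted p of Sult3a2 was 0.842. The edgeR adjusted p of Gstm7 was 0.839 without both libraries numbered 3 of metformin and the combination.

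Genes that supply the enzymes and carry off their products were read from lists of names, and none was called in the 4 comparisons. NRF2 targets outside the 3 enzyme groups lay higher in 19 of 23 with oxymetholone (median log2 difference 0.50, all genes 0.03) and in 19 of 23 with both drugs (median 0.25, all genes 0.00). The oxymetholone count was 17 without oxymetholone replicate 5 (median 0.24), and the combination count was 15 without combination replicate 3 and 15 with limma-voom. As for Gsta1, Gsta2 and Gstm3, the highest library was oxymetholone replicate 5 for Srxn1, the sulfiredoxin gene (387 CPM there, 207 in combination replicate 3, at most 121 elsewhere) and for the carbonyl reductase gene Cbr3 (75.7, 35.2 and at most 18.5 CPM). Cbr3 had a log2 difference of 3.28 ± 1.42 with oxymetholone (edgeR adjusted p = 0.877), and 1.495 without oxymetholone replicate 5. Srxn1 and Cbr3 are examples from the 23 targets, and the highest library of most others is not given here. The 23 targets summed to 9548 CPM in oxymetholone replicate 5 and to between 4957 and 8243 CPM in the other libraries. Genes of glutathione synthesis and reduction lay higher in 8 of 14 with oxymetholone and 9 of 14 with both drugs, with medians of 0.10 and 0.09. Without oxymetholone replicate 5 the median over the 22 glutathione transferase genes went from 0.33 to 0.08 in the oxymetholone comparison.

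For glucuronidation, Ugdh, the dehydrogenase that makes UDP-glucuronic acid, had 104, 166 and 117 CPM in untreated mutants and 124, 207, 174, 176 and 279 CPM with oxymetholone. These groups overlapped, and the log2 difference was 0.57 ± 0.24 (edgeR adjusted p = 0.877). For sulfation, Suox, the sulfite oxidase that makes sulfate, had 57.8, 94.3 and 111 CPM in untreated mutants and 157, 159, 258, 191 and 272 CPM with oxymetholone, without overlap. Its log2 difference was 1.24 ± 0.32 (edgeR adjusted p = 0.401), while the 8 genes of sulfate donor supply were 4 higher and 4 lower. Wild type had 114, 113, 169 and 161 CPM of Suox.

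Among 13 transporters of conjugates, 10 lay lower in untreated mutants than in wild type (median −0.32). With metformin 10 lay higher than in untreated mutants (median 0.37, and 7 with limma-voom), as did 53.9% of all genes. Both counts use untreated mutant replicate 2, where the transporters summed to 1340 CPM, against 4415 and 4500 CPM in replicates 3 and 4. Wild type had 2658 to 4827 CPM, and metformin libraries had 5885, 2588 and 2241 CPM. Abcc2, the canalicular exporter of glucuronides and glutathione conjugates, had 107, 170, 100 and 153 CPM in wild type and 71.6, 49.5 and 62.9 CPM in untreated mutants, without overlap. Its log2 difference was 0.71 ± 0.32 with oxymetholone and 0.82 ± 0.35 with both drugs (edgeR adjusted p = 0.877 and 0.879). Abcc4, an exporter of the sinusoidal membrane, was highest in oxymetholone replicate 5 (27.5 CPM, at most 7.24 elsewhere). Of 18 CAR and PXR targets outside the 3 groups, 16 lay lower in untreated mutants (median −0.46), and of 16 genes of hepatocytes near the central vein 15 did (median −0.51). Without untreated mutant replicate 2 these counts were 15 and 14, with medians of −0.32 and −0.27. Genes of hepatocytes near the portal vein lay lower in 10 of 14 (median −0.43). They summed to 7428 CPM in untreated mutant replicate 2, and to 12512 and 13470 CPM in replicates 3 and 4. A difference between the genes near the 2 veins was not tested. Of all genes 52.2% lay lower. With both drugs 14 of the 16 genes near the central vein lay higher than in untreated mutants (median 0.57, and 11 without untreated mutant replicate 2). So did 6 of 6 AHR targets (median 0.63), 5 of the 14 genes near the portal vein (median −0.39) and 50.4% of all genes. Not every combination library was high. The AHR targets summed to 603, 971 and 175 CPM with both drugs and to 263, 409 and 414 CPM in untreated mutants. The genes near the central vein summed to 14464, 18129 and 4320 CPM with both drugs and to 3781, 8982 and 8335 CPM in untreated mutants. Combination replicate 3 had the lowest combination value of each.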

How the data were processed

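The genes and the lists of other genes were chosen with earlier results of these data known. The authors deposited 1 table of 16115 genes in 18 libraries that holds counts per gene, per the file headers, a CPM signal scaled by library, log2 fold changes and residuals, and p-values of 7 comparisons. Per the submitters' processing notes, the build was GRCm39. The aligner, counting program, annotation and strand setting were not given in the sources used here. Total counts of 20.2 to 32.7 M per library limit the precision mainly for genes under 1 CPM.

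All values were computed from the deposited counts unless the authors' table is named. Counts were fitted in R 4.3.3 by the quasi-likelihood method of edgeR 4.0.16, with TMM scaling, filterByExpr (0 genes removed), 1 term for each of the groups, all 18 libraries together, and Benjamini-Hochberg adjustment over 16115 genes at 0.05. It was tested on simulated data. CPM is relative to the TMM-scaled library, and levels per kb used GENCODE vM21 transcript lengths. The named genes were those with the 5 smallest p per test, the up to 3 most abundant of each family and a list of genes known for induction or sex bias. DESeq2 1.42.0, limma-voom (limma 3.58.1) with quality weights, DESeq2's size factors, another filter, the compared groups alone and leaving out each library were the alternatives. Counts of signs under these alternatives were added after seeing the data. Of the 52 genes 43 matched a RefSeq promoter.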

Additional observations from a re-analysis of the deposited data

Results flagged for a closer look

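In groups of 4 or 5 libraries, 7 of 84 sets of values (42 genes in 2 groups) had 1 library far from the others, by Dixon's test on log2(CPM + 0.1), and chance alone gives about 1 in 20. In wild type, replicate 2 stood high for Gsta1 (3.77 CPM, others 0.368 to 0.540) and for Ugt2b37 (4.24 CPM, others 0.788 to 1.04). Wild type replicate 3 stood high for Sult2a7 (161 CPM, others 16.9 to 22.5) and for Sult3a2 (1.04 CPM, others 0.0712 to 0.0921). With oxymetholone, replicate 3 stood high for Sult5a1 (176 CPM, others 39.5 to 49.5) and low for Ugt3a2 (220.0 CPM, others 415 to 538). Oxymetholone replicate 2 stood low for Ugt1a7c (0.0742 CPM from 2 counts, others 0.623 to 0.857).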

How the results depend on the processing

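No paired analysis was possible because the labels carry no replicate numbers. The count of members called stayed at 0 under every alternative in 7 of the 8 tests. In the test for any group difference it was 4 with DESeq2, 1 with limma-voom and 0 to 1 when 1 library was left out (1 without metformin replicate 1, which was Ugt1a7c, and 1 without metformin replicate 4, which was Sult1c2). Directions of named genes reversed in 9 of 1522 values. With limma-voom the combination differences of Sult3a2 and Sult3a1 were −0.63 and −0.87. Without combination replicate 3 those of Sult2a1, Sult3a2 and Sult3a1 were −1.44, −1.96 and −2.72, the low ends of ranges over left-out libraries that reached 5.43, 4.94 and 5.74 without untreated mutant replicate 4, and without both libraries numbered 3 of metformin and the combination they were −1.46, −1.98 and −2.73. In that last setting the difference of Ugt1a7c with metformin, averaged over mutants with and without oxymetholone, was −0.071. The fits of the compared groups alone were made for the 4 single comparisons. With limma-voom, which gives outlying libraries less weight, the Sult2a1 combination difference was 0.011 and those of Gsta2 and Gsta4 with oxymetholone were 1.09 and 0.18. By the same tool the Ugt1a7c and Sult1c2 differences with metformin were 1.93 and 0.47, and that of Sult2a8 with oxymetholone was −2.05. Depth limits Sult2a5 (0 counts in 11 of 18 libraries), Sult2a2 (in 4), Gsta5 and Sult3a2 (in 2 each) and Sult2a1 (in 1).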
